A study of Mus musculus with 10 samples.

Results

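The Bcl2 family decides whether a damaged cell lives or dies, and 10 of its genes were followed across a series of mouse lymphoma lines that had become resistant to an alkylating drug. The 10 genes are the antiapoptotic Bcl2, Bcl2l1 and Mcl1, the effectors Bax and Bak1, and the BH3-only genes Bid, Bcl2l11, Bmf, Pmaip1 and Bbc3. They are a list of symbols, with no threshold on a measured value, and all 10 were found among the 22380 protein-coding genes, and the 37310 genes in all, of the GENCODE annotation of mm9. Antiapoptotic members hold the effectors in check at the mitochondrial outer membrane. BH3-only proteins bind the antiapoptotic members or act on the effectors directly, and freed Bax and Bak1 open the membrane and release cytochrome c, which starts the caspase cascade. B cells and B-cell lymphomas depend on this balance, and Pmaip1 (Noxa) and Bbc3 (Puma) are classic targets of p53 after DNA damage.

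The parental line is an Eμ-Myc B-cell lymphoma line from a C57BL/6J mouse that is Cdkn2a-/-, a genotype that all 5 lines share. The Eμ enhancer that drives Myc in this model comes from the antibody heavy chain locus and is active in B cells. Raised from that 1 line, the resistant lines R100, R500, R1000 and R4000 came from increasing the dose of mafosfamide, an active form of cyclophosphamide for use in culture. They were harvested at 100, 500, 1000 and 4000 nM after 10, 18, 23 and 37 days. For ChIP-seq all lines were grown without the drug. The mark measured was H3K27me3, the trimethylation of histone H3 that polycomb repressive complex 2 (PRC2) places and that typically lies over silent, CpG-rich promoters.

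The data are 1 peak list per line, with the position of each peak in mm9 on a grid of 50 bp and no height, count or p-value. The depth behind each list is unknown, a gene without a listed peak is not shown to lack the mark, and with 1 list per line no difference between lines could be tested. After entries that stood 2 times in the R100 and R500 lists had been counted once, the lists held from 6820 (R4000) to 25180 (R100) peaks, with 10778 in the parental line, so that the longer lists give every gene more chances of a peak. Where 5 values are given below, they stand in the order parental, R100, R500, R1000, R4000. For each gene the covered bases were summed from 5 kb upstream of the transcription start site (TSS) to the gene end, and a gene was counted as carrying a peak with at least 50 bp covered. Cdkn2a had no peak in any list, which does not test its deletion, since a list holds no read counts. Of 8 B-cell genes, among them Cd79a, Cd79b, Pax5 and Ebf1, 0, 4, 4, 3 and 3 had a peak, with summed coverage of 0 to 2450 bp per list, and of 6 T-cell genes (Cd3e, Cd3g, Cd4, Cd8a, Lck and Gata3), 2, 3, 4, 1 and 2 had one, with 450 to 6625 bp, most of it at Gata3. Peak positions hold no expression, so that the B-cell identity of the lines was not checked further here.

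Over the 10 Bcl2 family genes, H3K27me3 was sparse in every line. In the parental line 1 gene carried a peak, Bcl2l1, over 50 bp. Both R100 and R500 had peaks in 6 genes, namely Bcl2, Bcl2l1, Mcl1, Bak1, Bmf and Pmaip1. R1000 had peaks in 3 genes (Mcl1, Bak1 and Bid) and R4000 in 3 (Bcl2l1, Mcl1 and Bcl2l11). Summed over all 10 genes, the covered bases came to 50, 1850, 750, 350 and 250 bp. Bax and Bbc3 had no peak in any of the 5 lists.

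These counts have to be read against the length of each list. Among all annotated genes, 9.69%, 25.0%, 20.1%, 12.0% and 10.4% carried a peak. Among protein-coding genes the shares were 12.9%, 34.2%, 27.2%, 16.1% and 14.0%. For the Bcl2 family genes the 95% Wilson interval of the share ran from 1.79 to 40.4% for the 1 gene of the parental line, from 31.3 to 83.2% for the 6 of R100 or R500, and from 10.8 to 60.3% for the 3 of R1000 or R4000. The intervals cover the counting of 10 genes only. They include the share of protein-coding genes in every line but R500, where that share lies below the lower bound. The shares of all annotated genes lie below the lower bound in R100, R500 and R4000. The 10 genes are a chosen list and not a random draw, so that these intervals do not test for an excess. When each list was reduced to its 6820 widest peaks, as many as the shortest list holds, 0, 3, 1, 2 and 3 of the 10 genes kept a peak, namely Bcl2, Bcl2l1 and Mcl1 in R100, Bak1 in R500, Mcl1 and Bak1 in R1000, and Bcl2l1, Mcl1 and Bcl2l11 in R4000. This cut sets a different least width in each list. R4000 kept every peak, down to 50 bp at Bcl2l11, while R500 lost its 150 bp peak at Mcl1. Shares of all genes under the same cut are not given here, so that these counts stand without a background. The windows of the 10 genes are of ordinary length, with a median of 20.1 kb against 20.4 kb over all protein-coding genes.

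**Figure D1:**
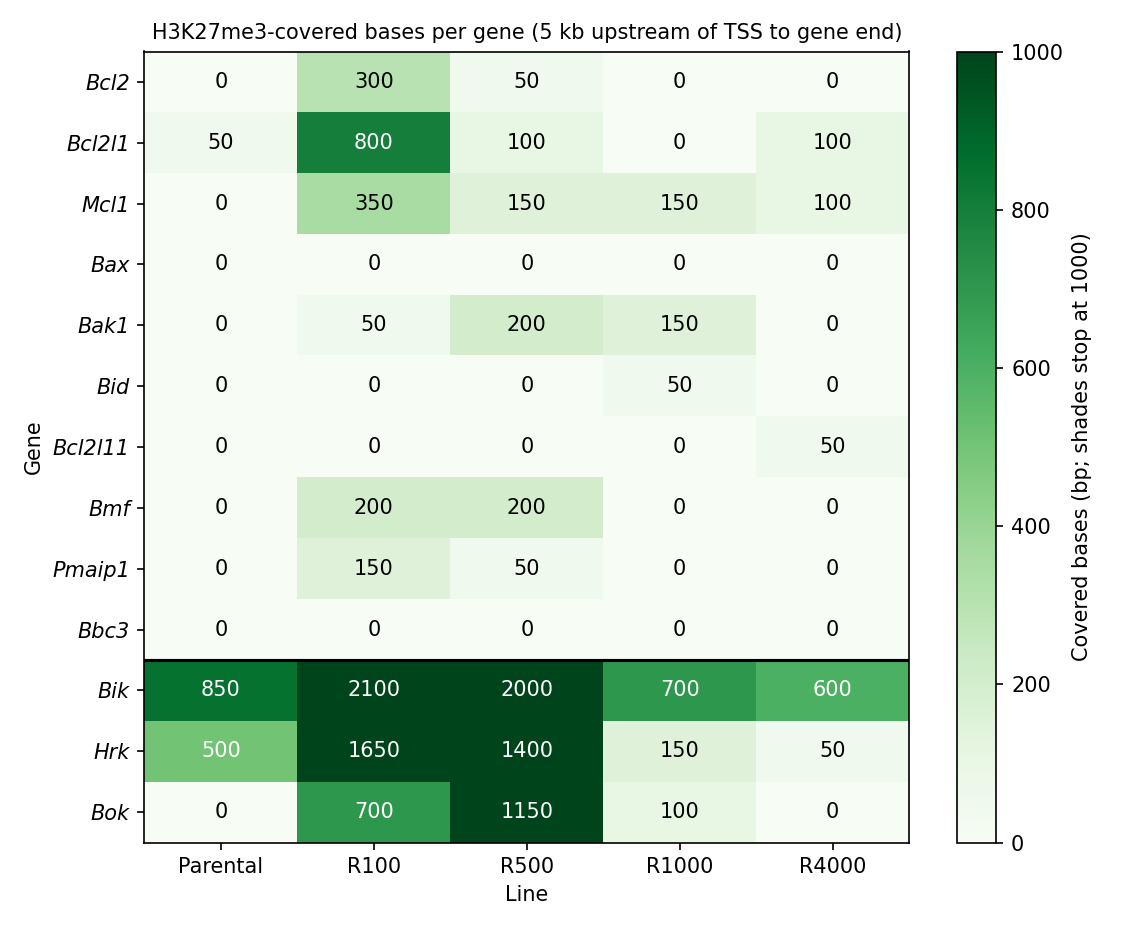
Bases covered by H3K27me3 peaks from 5 kb upstream of the TSS to the gene end, for the 10 Bcl2 family genes (above the line) and for Bik, Hrk and Bok (below it), in each of the 5 lines. Each cell gives the covered bases in bp from 1 peak list. The 10 genes reach at most 800 bp (Bcl2l1 in R100), and Bik reaches 2100 bp in R100.

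The starts of the 10 genes are rich in G and C. Within 500 bp on both sides of the TSS, all 10 genes have a GC content above the median of protein-coding genes (54.7%), from 56.5% at Bcl2l1 to 69.8% at Bcl2. Among the 8540 protein-coding genes within that range of GC content, 18.1%, 50.5%, 40.0%, 24.1% and 21.6% carried a peak. All 5 of these shares lie inside the intervals of the Bcl2 family genes. Within 2 kb of the TSS in either direction, a span of the same length for every gene, 1, 5, 5, 3 and 1 of the 10 genes had a peak. All annotated genes had one there in 6.30%, 20.3%, 15.7%, 9.25% and 8.20% of cases. The shares of protein-coding genes were 8.24%, 28.1%, 21.3%, 12.5% and 11.1%, and with GC content in the same range they were 13.4%, 45.8%, 34.9%, 20.6% and 18.5%. In this span too, each of these last shares lies inside the interval of the 10 genes. The interval begins at 23.7% in R100 and R500 and at 10.8% in R1000. Below it lie the share of protein-coding genes in R500 and the shares of all annotated genes in R100, R500 and R1000. What base composition contributes to the counts was not tested.

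**Figure D2:**
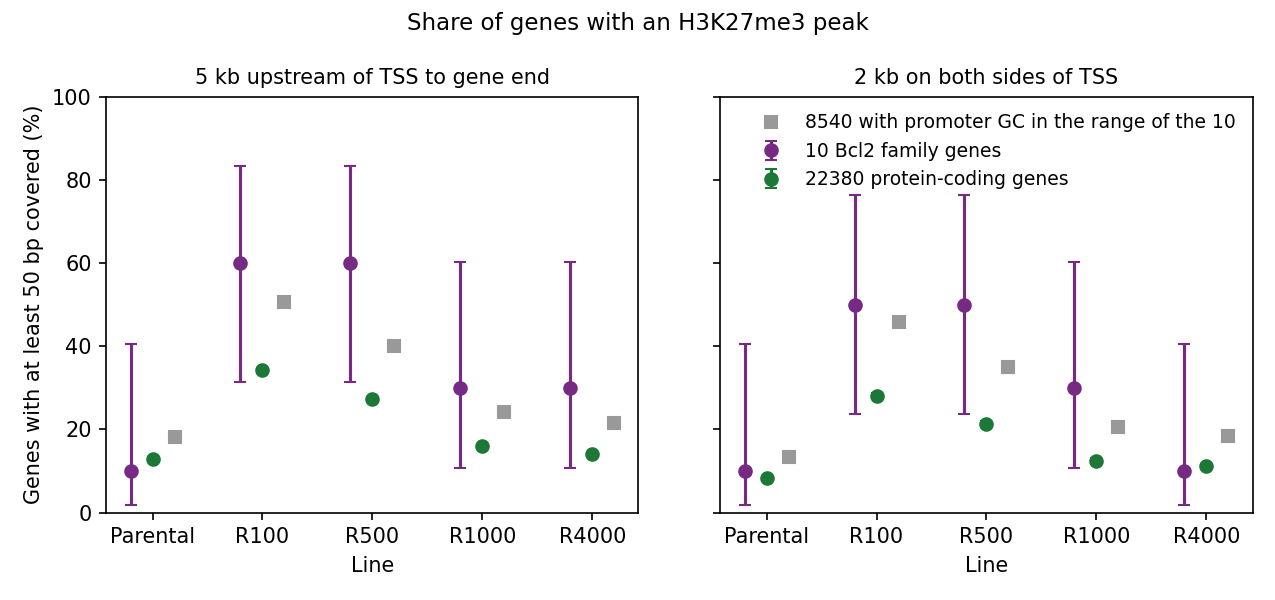
Share of genes (%) with at least 50 bp covered by H3K27me3 peaks in each line, in the window from 5 kb upstream of the TSS to the gene end (left) and within 2 kb of the TSS in either direction (right). Points are shares, bars are 95% Wilson intervals over genes (narrower than the point for the 22380 protein-coding genes), and squares are the 8540 protein-coding genes whose promoter GC content lies within the range of the 10 family genes. In R100 the shares in the longer window are 6 of the 10 genes, 34.2% of protein-coding genes and 50.5% of those with GC content in range.

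Against the parental line, R100, R500, R1000 and R4000 had more covered bases at 6, 6, 3 and 3 of the 10 genes. The shares of all annotated genes with more were 23.9%, 19.0%, 8.69% and 6.44%, and of protein-coding genes 32.8%, 25.7%, 11.5% and 8.57%. Fewer bases were covered at 0, 0, 1 and 0 of the 10 genes, the 1 being Bcl2l1 in R1000, against 1.92%, 2.05%, 5.55% and 7.12% of all annotated genes and 2.37%, 2.64%, 7.48% and 9.58% of protein-coding genes. By role, 1, 3, 3, 1 and 2 of the 3 antiapoptotic genes had a peak, 0, 1, 1, 1 and 0 of the 2 effectors, and 0, 2, 2, 1 and 1 of the 5 BH3-only genes. Groups of this size were not tested.

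Among the antiapoptotic genes, Mcl1 was the only one of the 10 genes with a peak in each of the 4 resistant lines and none in the parental line. Mcl1 encodes a short-lived survival protein on which many B-cell tumours rely. The gene lies on chromosome 3 from 95462643 to 95467099. Its covered length was 0, 350, 150, 150 and 100 bp. The presence of a peak in the 4 resistant lines alone was found at 385 protein-coding genes (1.72%). The peaks lie in the first part of the gene but not on the same bases. R100 covered 658 to 1007 bp downstream of the TSS, R500 covered 1008 to 1157 bp, R1000 covered 1158 to 1307 bp and R4000 covered 1008 to 1107 bp. Only the peaks of R500 and R4000 overlap. The nearest parental peak was 245 kb from the TSS.

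The 100 bp of Mcl1 that R500 and R4000 share run from the last 33 bp of an intron into 67 bp of coding sequence. Their length is that of an overlap of peak calls and does not give the extent of the mark. The stretch is written on the strand of the gene, with each CpG in capitals.
Mcl1, chr3:95463651-95463750, plus strand: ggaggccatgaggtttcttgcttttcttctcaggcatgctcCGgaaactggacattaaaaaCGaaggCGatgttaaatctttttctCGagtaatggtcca
It holds 4 CpG at a GC content of 44.0%. The R100 peak just upstream is richer, with 34 CpG in 350 bp and a GC content of 67.7%, and 240 of its 350 bp are intronic and 110 coding.

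Bcl2, the founding survival gene of the family, lies on chromosome 1 from 108434755 to 108610851 on the minus strand. Its peaks covered 0, 300, 50, 0 and 0 bp. Although its window spans 181 kb, all 3 peaks fall within 301 to 750 bp downstream of the TSS, in exon sequence annotated as UTR. The single R500 peak, from 401 to 450 bp, lies inside the wider R100 peak, from 301 to 500 bp. In the parental line the nearest peak was 786 kb from the TSS, and in R4000 it was 722 kb away. A peak in R100 and R500 alone, the pattern of Bcl2, Bmf and Pmaip1, was found at 1264 protein-coding genes (5.65%).

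Bcl2l1 encodes Bcl-xL, the main survival protein of many lymphoid cells, and lies on chromosome 2 from 152593052 to 152657464 on the minus strand. It had the most covered bases of the 10 genes, with 50, 800, 100, 0 and 100 bp. No base was covered in more than 1 list. The parental peak ends 1537 bp upstream of the TSS. Of the R100 bases, 600 bp form 1 intronic peak that starts 61914 bp downstream of the TSS, the widest peak at any of the 10 genes. Only 1 of the 10 annotated transcripts of Bcl2l1 reaches that far. The R500 peak starts 64214 bp downstream, farther out still. Near the start of the gene, R100 had a peak from 1964 to 2063 bp, in coding sequence, and R4000 had one from 2514 to 2613 bp, in an annotated UTR. Without the distant 600 bp peak, the coverage of Bcl2l1 in R100 rests on 3 peaks of 50 to 100 bp.

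The effectors differed from each other in presence. Bax, on chromosome 7 from 52717065 to 52722268, had no peak in any line, and the peaks nearest to its TSS were 52.0, 32.7, 32.8, 32.7 and 51.5 kb away. No peak in any of the 5 lists was the pattern of 57.2% of protein-coding genes. Bak1, which can permeabilize mitochondria in the place of Bax, lies on chromosome 17 from 27156755 to 27165954 on the minus strand. Its covered length was 0, 50, 200, 150 and 0 bp. Its peaks stack on the same place, an intronic stretch from 604 to 803 bp downstream of the TSS. This stretch also lies within Ggnbp1, a gene on the opposite strand, so that a peak there cannot be given to Bak1 alone.

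The 50 bp of Bak1 that R100, R500 and R1000 share are shown because they are the only bases of the 10 genes covered in 3 lists. The capitals mark CpG.
Bak1, chr17:27165251-27165300, minus strand: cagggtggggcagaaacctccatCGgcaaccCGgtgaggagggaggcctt
This stretch has a GC content of 66.0% and 2 CpG. Around its TSS, Bak1 has the lowest ratio of observed to expected CpG of the 10 genes (0.28, against a median of 0.55 over protein-coding genes and 0.96 at Mcl1).

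Of the BH3-only genes, Bmf and Pmaip1 had peaks in R100 and R500 and in no other list. Bmf, which senses loss of attachment and stress at the cytoskeleton, lies on chromosome 2 from 118354493 to 118375423 on the minus strand. It had 0, 200, 200, 0 and 0 bp covered. The R100 peaks lie from 73 to 172 and from 423 to 522 bp downstream of the TSS, and the R500 peaks from 123 to 222 bp downstream and, upstream, from -277 to -178 bp. Both lists thus mark the very start of the gene and share 50 bp, 25 coding and 25 intronic, which are the most CpG-rich of the sequences shown here, with 8 CpG (capitals) and a GC content of 86.0%.
Bmf, chr2:118375251-118375300, minus strand: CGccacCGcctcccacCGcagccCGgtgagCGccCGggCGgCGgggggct

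Pmaip1 encodes Noxa, a small BH3-only protein that binds Mcl1, and lies on chromosome 18 from 66618258 to 66625204. Peaks covered 0, 150, 50, 0 and 0 bp of it. In R100 its peaks lie from -707 to -658 bp and from 93 to 192 bp relative to the TSS, and in R500 from 293 to 342 bp downstream, with no base in common. The nearest peaks in R1000 and R4000 were 519 and 521 kb from the TSS.

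Bid, the BH3-only protein that caspase-8 cleaves, lies on chromosome 6 from 120841948 to 120866871 and had a single intronic peak of 50 bp in R1000, from 621 to 670 bp downstream of the TSS. Its coverage in the other 4 lists was 0 bp. Bcl2l11 encodes Bim, a BH3-only protein that limits Myc-driven B-cell lymphoma, and lies on chromosome 2 from 127951774 to 127988283. It also had a single peak of 50 bp, in R4000, from 2727 to 2776 bp downstream of the TSS, in sequence annotated as coding. Peaks of 50 bp, the least width that the grid allows, make up 35.1% of the R4000 list and 33.9% of the R1000 list. Bbc3, on chromosome 7 from 16894965 to 16903554, had no peak within its window in any line. The peaks nearest to its TSS were 9.41, 9.31, 77.8, 9.37 and 78.0 kb away, so that 3 of the 5 lists hold a peak not far outside the window.

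**Figure D3:**
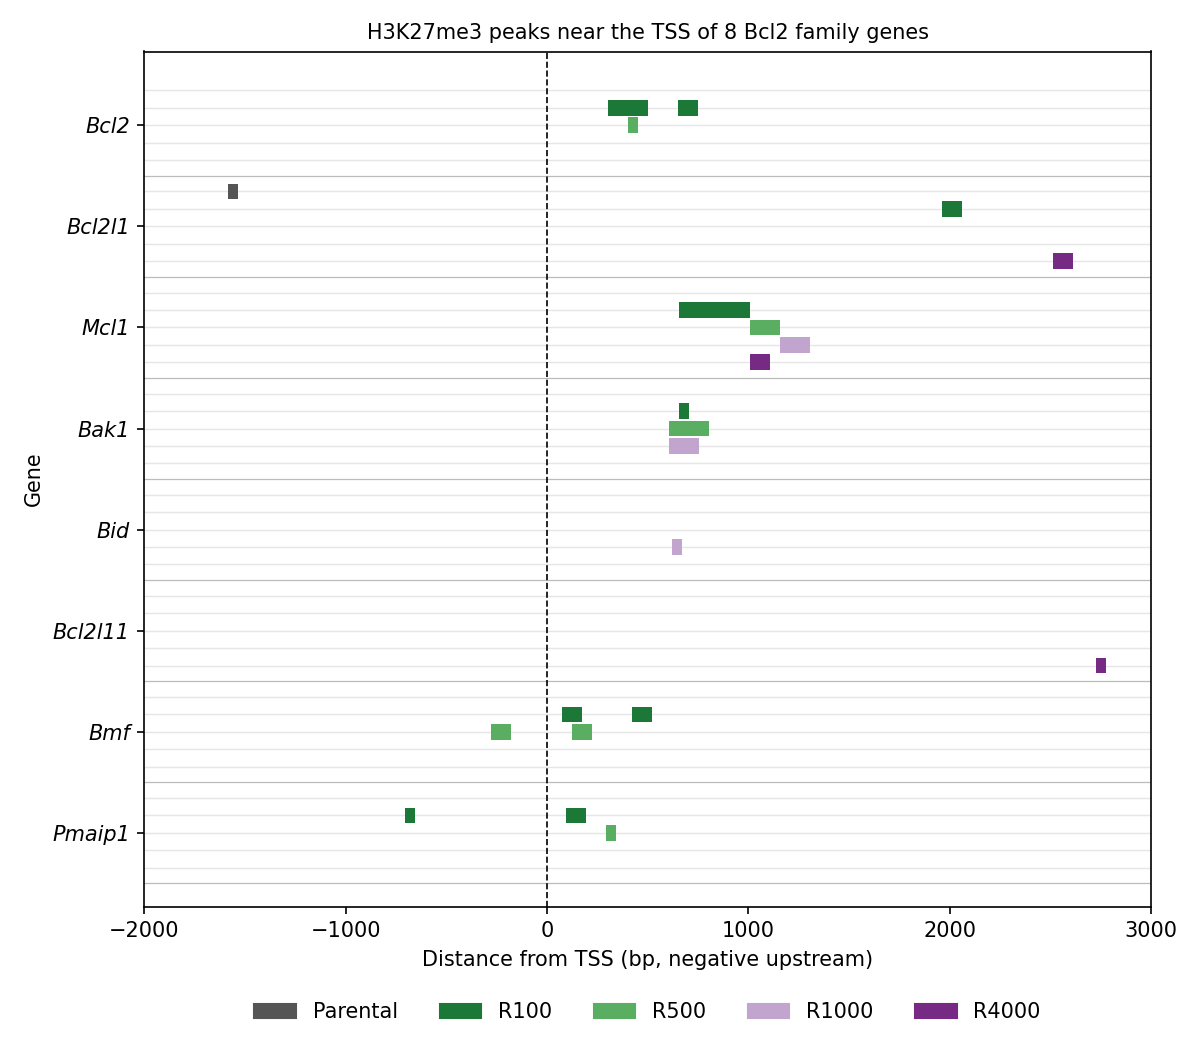
Position of H3K27me3 peaks from 2000 bp upstream to 3000 bp downstream of the TSS (dashed line) for the 8 Bcl2 family genes with a peak in any list. Each grey row is 1 line, in the order parental, R100, R500, R1000 and R4000 from the top, and each bar is 1 peak drawn to scale. Most bars lie between the TSS and 2000 bp downstream, and 4 peaks of Bcl2l1 that lie farther downstream are outside the plot.

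The peaks of the 10 genes numbered 26 over the 5 lists. Of these, 16 lay wholly within the first 2 kb downstream of the TSS, 3 others lay within 2 kb upstream, and the remaining 7 ended more than 2 kb downstream, of which 6 belonged to Bcl2l1 and 1 to Bcl2l11. The first of these at Bcl2l1, in R100, begins 1964 bp downstream and so lies partly within that distance. Measured to the nearest annotated transcript start instead, that peak lies 546 bp away, the Bcl2l1 peak of R4000 580 bp and the Bcl2l11 peak 634 bp. The others at Bcl2l1 lie 5771 bp or more from any annotated start. Of the bases covered in R100, 56.1% lay in the first 2 kb downstream, and 95.2% with Bcl2l1 left out, against 40.2% over all protein-coding genes. In R500 the shares were 73.3% and 84.6%, against 38.0%, and in R1000 all covered bases lay there, against 40.7%. In R4000 the share was 40.0%, and 66.7% with Bcl2l1 left out, against 43.5%. The only parental peak lay upstream, against 32.7% of parental bases over protein-coding genes in the first 2 kb downstream. The 5 kb upstream held 2.70% of the covered bases of the 10 genes in R100 and 13.3% in R500, against 30.0% and 31.7% over protein-coding genes. With at most 12 peaks per list, 1 wide peak moves these shares, as Bcl2l1 shows. Bcl2l1 was left out of the 10 genes only, while the shares over protein-coding genes keep every gene with distant peaks. The shares without Bcl2l1 therefore have no like background.

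R100 and R500 marked the same 6 genes. Peaks in both lists were found at 21.9% of protein-coding genes and at 33.4% of those with promoter GC content in the range of the 10 genes. At 3 of the 6 genes (Bcl2, Bak1 and Bmf) the lists shared at least 1 base, at Mcl1 the peaks abut, and at Bcl2l1 and Pmaip1 they are apart. Among the 4901 protein-coding genes with peaks in both lists, 70.1% shared a base.

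The GC content of the peaks stood above that of the whole list in some lines and below it in R4000. In R100 the 12 peaks had a median GC content of 59.5%, against 54.0% over the whole list, and in R500 the 7 peaks had a median of 61.5%, against 53.0%. The 3 peaks of R1000 had a median of 60.0%, against 52.0%, the 3 of R4000 had 44.0%, against 54.0%, and the parental peak was close to the median of its list, 49.3%. In 9 of the 26 cases the peak was 50 bp wide. The widest peak of the 10 genes outside Bcl2l1 was that of Mcl1 in R100, with 350 bp. Where one of the 10 genes had a peak, its covered length ran from 50 to 800 bp, and the median of protein-coding genes with a peak was 200 bp in R100 and R500 and 150 bp in R1000 and R4000. In R100, Bcl2l1 had more covered bases than 79.3% of the protein-coding genes with a peak, Mcl1 more than 62.0%, Bcl2 more than 58.1%, Bmf more than 45.9% and Pmaip1 more than 36.7%, while Bak1 was at the least length, 50 bp.

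In the rest of the Bcl2 family, wide marks were found at 3 genes. Of 16 other family genes, 2, 6, 5, 4 and 3 had a peak, with total coverage of 1350, 4800, 4700, 1050 and 700 bp. The share of protein-coding genes with a peak lies inside the 95% Wilson interval of the 16 genes in every line (18.5 to 61.4% in R100, against 34.2%). Most of the covered bases belonged to 3 genes. Bik, a BH3-only gene, was covered over 850, 2100, 2000, 700 and 600 bp. Hrk, the BH3-only gene Harakiri of neurons, was covered over 500, 1650, 1400, 150 and 50 bp. Bok, a relative of Bax and Bak1, had 0, 700, 1150, 100 and 0 bp.

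Bik and Hrk had a peak in all 5 lists, as did 6.91% of protein-coding genes and 0 of the 10 genes listed first. In the parental line Bik covered more bases than 84.1% of the genes with a peak, and in R100 more than 93.4%. Its marked bases lie on both sides of the TSS. A stretch of 250 bp, from -641 to -392 bp relative to the TSS, was covered in all 5 lists. It is printed for contrast with the shorter shared stretches of Mcl1, Bak1 and Bmf (CpG in capitals).
Bik, chr15:83356651-83356900, plus strand: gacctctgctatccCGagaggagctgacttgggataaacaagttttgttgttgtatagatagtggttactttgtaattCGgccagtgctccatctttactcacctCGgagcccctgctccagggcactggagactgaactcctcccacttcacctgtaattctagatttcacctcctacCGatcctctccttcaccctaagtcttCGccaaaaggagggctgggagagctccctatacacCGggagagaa
It has 6 CpG and a GC content of 50.8%. At Hrk the parental peaks lie in an intron from 2128 to 2827 bp downstream of the TSS, where R100 and R500 also had peaks and R1000 and R4000 had none. The peaks of Hrk in R1000 and R4000 lie elsewhere, nearer to the TSS. At Bok, R100 and R500 covered stretches between -370 and 1229 bp relative to the TSS.

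**Figure D4:**
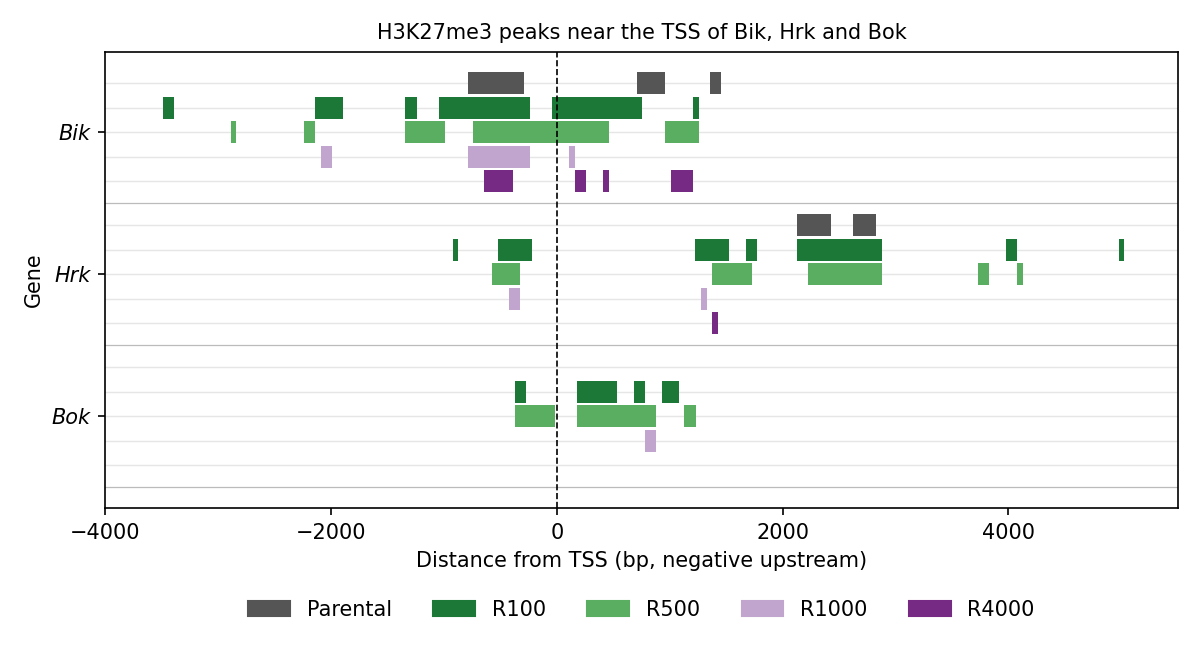
Position of H3K27me3 peaks from 4000 bp upstream to 5500 bp downstream of the TSS (dashed line) for Bik, Hrk and Bok, with rows and bars as in the map of the 8 family genes. Bik carries peaks upstream of the TSS in all 5 lines, the parental peaks of Hrk start 2128 bp downstream, and Bok has no parental or R4000 peak.

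The remaining 13 of the other family genes were covered over at most 150 bp. Bcl2l14 had 0, 150, 100, 0 and 50 bp. Bad, Bcl2l10, Bcl2l15, Bnip3l and the near-identical Bcl2a1a, Bcl2a1b, Bcl2a1c and Bcl2a1d, whose reads may not be placed uniquely, had no peak in any list. Peaks of 50 or 100 bp in single lists made up the coverage of Bcl2l2, Bcl2l12, Bcl2l13 and Bnip3.

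In the pathway downstream of and around the family, 3, 12, 9, 4 and 4 of 24 genes had a peak, and the share of protein-coding genes lies inside the 95% Wilson interval of the 24 genes in every line (31.4 to 68.6% in R100). The shares of all annotated genes lie below the lower bound in R100 (25.0%) and in R500 (20.1%, against 21.2%). Within 2 kb of the TSS the share of protein-coding genes in R100, 28.1%, also lies below 31.4%. The 24 genes too are a chosen list, so that these intervals do not test for an excess. No background matched to them in GC content is given here. The death receptor gene Fas was covered over 200, 50, 600, 200 and 0 bp. Casp8, the initiator caspase of death receptors, was covered over 0, 100, 50, 0 and 400 bp, the most of any pathway gene in R4000. Htra2, a mitochondrial protease released in apoptosis, had 0, 200, 350, 0 and 200 bp. Cycs, which encodes cytochrome c, had 350 bp in R100, 150 bp in R1000 and none in the other lists, and Apaf1, the scaffold of the apoptosome, had 150 bp in R100 alone. Vdac2, a channel of the outer membrane that binds Bak1, had 100 bp in R100 and 150 bp in R500. Trp53, which encodes p53, had 200, 50 and 100 bp in R100, R500 and R1000 and no peak in the parental line and R4000. Foxo3, a transcription factor that activates Bcl2l11, had 100, 300, 0, 0 and 0 bp. Casp9, the initiator caspase of the apoptosome, was among the genes without a peak in any list, as were Xiap, Birc3, Birc5, Aifm1 and Fadd. Casp2, Diablo, Birc2, Endog, Vdac1, Cflar and Mdm2 had at most 100 bp in any list.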

How the data were processed

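H3K27me3 ChIP-seq of 5 lines was analysed, 1 peak list per line, each sample being matched to its line by its title. The 5 RRBS samples were not analysed here. The authors' peak calls rest on Poisson statistics, with input DNA as the background. The submitters' processing notes name Bowtie and mm9. The study describes biological replicates and, for clustering promoters, a minimum of 3 enriched bins of 50 bp. Whether replicates were pooled into 1 list, and which p-value cut-off the lists have, is not given in the sources used here, and the lists also hold peaks of 1 bin. The values the authors deposited are peak positions in base pairs, 1-based, with no count or score, so depth is unknown and Wilson intervals cover the counting of genes only. Repeated entries were counted once. Positions were read on NCBIM37 (mm9), where 0 peaks ended beyond their chromosome (chromosome Y not compared), with the GENCODE annotation of that build. The TSS was the outermost 5′ end of the gene. Covered bases were computed in Python 3.11.15 with scipy 1.17.1 for intervals, tested on simulated data (0 of 8000 windows differed from a base-by-base count), and figures were drawn with matplotlib 3.10.9.

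The 10 genes and the lists of other genes were chosen with earlier results of these data known. Named are all 10 genes, the genes of the other lists with at least 150 bp in any list, and others by count, with some added to complete a count. Some genes of the other lists are counted but not reported here by name. The sequence of Bik, the map of Bik, Hrk and Bok, and the background of genes in the same range of GC content were added after values had been seen. Printed sequences are the bases covered in the most lists, outside UTRs and chromosome 18. They are shown for genes with at least 2 lists in common. Alternatives were other peak widths, equal list lengths, joined peaks, other windows, 150 bp as the minimum, entries as deposited, all transcript starts and leaving out the gene with the most covered bases.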

Additional observations from a re-analysis of the deposited data

Results flagged for a closer look

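At 3 genes of the family the resistant lines lay on both sides of the parental line in covered bases, and with 1 list per line this difference was not tested. For R100, R500, R1000 and R4000 in turn, covered bases minus those of the parental line were 750, 50, -50 and 50 bp at Bcl2l1, where the last 3 values amount to 1 step of the 50 bp grid. At Bik they were 1250, 1150, -150 and -250 bp. At Hrk they were 1150, 900, -350 and -450 bp. The R100 and R500 lists are longer than the parental list (25180 and 21888 peaks against 10778) and those of R1000 and R4000 are shorter (9595 and 6820). In the 4 resistant lines in turn, 23.9%, 19.0%, 8.69% and 6.44% of all annotated genes had more covered bases than in the parental line. Fewer were covered at 1.92%, 2.05%, 5.55% and 7.12%. How many of all genes had lines on both sides was not counted, so that the 3 genes stand without a background. When all lists were cut to equal length (the 6820 widest peaks of each), a setting added for Bik and Hrk after the data had been seen, the covered bases of the parental, R100, R500, R1000 and R4000 lists were 0, 600, 0, 0 and 100 bp at Bcl2l1, where no line then lay below the parental line. They were 850, 1850, 1850, 650 and 600 bp at Bik and 500, 1350, 1250, 100 and 50 bp at Hrk, where the resistant lines still lay on both sides. The cut keeps the widest peaks, so that wide peaks at Bik and Hrk tend to stay, and R4000 keeps every peak. It does not make depth equal, and what list length contributes to these differences was not tested.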

How the results depend on the processing

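No paired analysis was possible because each line has 1 list and no result comes from a test. Settings are compared with 1, 6, 6, 3 and 3 of the 10 genes with a peak (parental, R100, R500, R1000, R4000), with 1, 5, 5, 3 and 1 within 2 kb of the TSS, and with changes in covered bases against the parental line of 1800, 700, 300 and 200 bp. With equal list lengths the parental line, R100 and R500 had 0, 3 and 1 genes, 0, 2 and 1 within 2 kb, and the changes in R100 and R500 were 1150 and 200 bp. With peaks of at least 500 bp the counts were 0, 1, 0, 0 and 0, all 0 within 2 kb, and the changes 600, 0, 0 and 0 bp. With peaks of at least 100 bp the parental line had 0 genes in both windows and R500 had 3 within 2 kb. With at least 150 bp per gene, the parental line, R500 and R4000 had 0, 3 and 0 genes in both windows, and the R4000 change was 0 bp. In the upstream 5 kb alone, R100, R500, R1000 and R4000 had 1, 1, 0 and 0 genes and changes of 0, 50, -50 and -50 bp, so that the last 2 turned direction through the parental peak upstream of Bcl2l1. Within 2 kb of the TSS the R100 and R4000 changes were 1037 and 50 bp, R4000 had 1 gene, and the other family genes and the pathway genes had 1 each in the parental line, a window added for these lists after the data had been seen. Without Bcl2l1, or in the gene body alone, the parental line had 0 genes, and without Bcl2l1 the R100 change was 1050 bp. With any transcript start R4000 had 3 genes within 2 kb. Entries as deposited gave R100 and R500 changes of 3650 and 1450 bp, and peaks joined within 1000 bp gave 2950 and 1099 bp. Counting protein-coding genes alone gave shares of 12.9%, 34.2%, 27.2%, 16.1% and 14.0%. Of 209 alternative values for the 19 gene and line pairs with covered bases, 83 moved by over 1.5 times. The 31 gene and line pairs at 0 bp stayed at 0 in each alternative. Only joined peaks and all transcript starts could have raised a 0, since the other settings drop peaks, narrow the window or repeat entries. Peak lists without depth or replicates limit every comparison between lines.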

Other observations

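The covered bases of Bcl2l1 over the 5 lists (50, 800, 100, 0 and 100 bp) were most like those of Ptpn6 (0, 850, 100, 0 and 50 bp), Stra6 (50, 800, 150, 0 and 0 bp) and Acyp1 (50, 650, 100, 0 and 100 bp), each differing by 150 bp in sum of absolute differences over the 5 lists.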
